A study of Mus musculus with 32 samples.

Results

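The RANKL axis and its osteoclast genes were followed through the developing jaws of mouse embryos in which the TGF-beta type I receptor had been deleted from the neural crest. The set held 9 genes, matched by the gene symbol of the array platform, of 18193 genes with a symbol. They were the ligand genes Tnfsf11 and Csf1, the receptor gene Tnfrsf11a, the decoy receptor gene Tnfrsf11b, the effector genes Acp5, Ctsk and Mmp9, and the cell fusion genes Dcstamp and Ocstamp. Tissue was taken at embryonic day 13.5 and measured on 32 Affymetrix mouse arrays, 4 for each of 8 groups. The mutants carried Wnt1-Cre and Alk5 fl/fl alleles and were recognised by their cleft palate and calvarial defect, and the controls were littermates from the same matings of Wnt1cre;Alk5fl/+ with Alk5fl/fl animals. Control embryos of such a mating still carry a floxed Alk5 allele, and the labels do not say which of them carried Cre. For each genotype, the groups were the distal mandible, the proximal mandible, the distal maxilla and the proximal maxilla, and all animals had the strain label C57B6. Wnt1-Cre is active in the neural crest, which gives rise to the jaw mesenchyme, its cartilage and its bone, whereas osteoclasts and macrophages come from blood-forming lineages and were not the cells targeted. The labels number the arrays of a group 1 to 4 and do not say whether they came from separate embryos, so every p-value rests on array-to-array spread alone, part of which may be technical.

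RANKL, the product of Tnfsf11, is a membrane-bound and shed cytokine of osteoblast-lineage and other mesenchymal cells. It binds RANK, encoded by Tnfrsf11a, on myeloid precursors, which survive and multiply through M-CSF, the product of Csf1, and then fuse into bone-resorbing osteoclasts. Osteoprotegerin, encoded by Tnfrsf11b, is a soluble decoy that binds RANKL and keeps it from its receptor. Inside the precursor the signal runs through TRAF6, NF-kappaB and AP-1 to NFATc1, the master transcription factor of the osteoclast, which turns on tartrate-resistant acid phosphatase (Acp5), the collagen-degrading protease cathepsin K (Ctsk), matrix metalloproteinase 9 (Mmp9) and the fusion protein DC-STAMP (Dcstamp).

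Tnfsf11 and Ctsk were the members with a difference between genotypes that passed the test, so the bases just before their start sites are shown. They are the 250 bases upstream of the start in RefSeq, build GRCm38.p6, where 5 of the 9 members had an entry. The Tnfsf11 stretch is chr14:78308044-78308293 on the minus strand and the Ctsk stretch is chr3:95498960-95499209 on the plus strand, and both are written 5′ to 3′ along the gene.
Tnfsf11: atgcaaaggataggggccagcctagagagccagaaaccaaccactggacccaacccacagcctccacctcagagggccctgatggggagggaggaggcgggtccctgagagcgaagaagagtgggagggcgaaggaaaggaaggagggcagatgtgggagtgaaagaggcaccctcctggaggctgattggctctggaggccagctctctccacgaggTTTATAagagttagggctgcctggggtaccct
Ctsk: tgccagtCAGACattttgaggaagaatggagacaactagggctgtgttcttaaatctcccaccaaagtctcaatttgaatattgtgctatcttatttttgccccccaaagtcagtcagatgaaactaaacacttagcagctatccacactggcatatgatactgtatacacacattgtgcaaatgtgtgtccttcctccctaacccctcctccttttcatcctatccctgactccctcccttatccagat
Capitals mark matches, on either strand, to 5 short motifs: CAGAC of the SMAD box, TGTGGT of RUNX factors, GGAAAA of NFAT, TGANTCA of AP-1 and TATAAA. The motifs do not overlap one another in these stretches. The Tnfsf11 stretch held 1 match, to TATAAA on the opposite strand 32 to 27 bases before the start. The Ctsk stretch held 1, to CAGAC on the gene's own strand 243 to 239 bases before the start. Of 32851 stretches of the same length in the table, 12.4% held TATAAA and 42.2% held CAGAC. The RUNX letters were in 14% of these stretches, the NFAT letters in 20.4% and the AP-1 letters in 6.75%. A match is a run of letters and not a site shown to be bound, and the files read expression, not binding.

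The levels are log2 values per probe set, a group of probes for 1 transcript region. Within a group, arrays had correlations of 0.926 to 0.997, and 0 pairs were identical. The 8 arrays of number 1 stood apart in their Cre spike-in control (14.03 to 14.23, against 13.00 to 13.67 on the other 24). Array 3 of the control distal mandible stood apart in the difference between the 3′ and 5′ Gapdh probes (2.23, against -0.18 to 0.12 elsewhere). The sex-specific transcript Xist was high on the arrays of mutant number 1 and control number 2 (13.34 to 14.06) and low on most others, with the 2 maxilla arrays of control number 3 in between (9.69 and 10.72, against 6.70 and 6.84 on its mandible arrays). Hand2, a marker of the lower jaw, read 10.71 to 13.66 in the mandible and 5.76 to 10.17 in the maxilla. The targeted gene Tgfbr1 was not lower in mutants, and was called higher at the distal end of both jaws, with an adjusted p of 0.0411 in the mandible and of 0.00477 in the maxilla. It differed by 0.28 and 0.18 in the mandible and by 0.41 and 0.16 in the maxilla (distal, then proximal), on a probe set that was not placed inside or outside the deleted exon, so this is no test of the genotypes. The genotype differences of the members are given with and without number 1.

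Tnfsf11 was lower in the mutant than in the control distal mandible, the region where its control level was highest. The 4 mutant arrays read 4.74, 5.54, 5.14 and 4.99, against 7.85, 7.65, 7.61 and 6.98 on the 4 control arrays. No mutant array reached any control array. In bulk tissue, fewer cells of a type and less RNA per cell cannot be told apart. The difference was -2.42 ± 0.42 (SE, log2), with means of 5.10 ± 0.34 in mutants and 7.52 ± 0.38 in controls (SD, n = 4 each), a level 5.36-fold lower in the mutant (limma, adjusted p = 0.00232). It was called again when any 1 of the 8 arrays was left out (-2.60 to -2.30, adjusted p = 0.00247 to 0.0123) and without number 1 (-2.19 ± 0.22, adjusted p = 4.81e-05). All 16 mutant arrays lay under the level used to filter low signal (6.66 to 6.86, the percentile 40 of each array), and the 6 arrays above it were controls, so the gene entered the test through the control group alone. The files carry no detection calls, so whether the mutant level differs from background was not determined and the fold is approximate.

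In the other 3 regions Tnfsf11 read lower in mutants by a smaller amount, and the difference did not pass the test. In the proximal mandible the mutant arrays read 4.71, 4.96, 4.67 and 5.00, against 7.81, 5.44, 5.15 and 5.54 on the control arrays. The groups did not overlap, and control array 1 lay far above its own group (difference -1.15 ± 0.42, adjusted p = 0.217). Without number 1 the difference was -0.50 ± 0.22 (adjusted p = 0.325). In the distal maxilla the mutant arrays read 4.88, 4.51, 4.49 and 4.48, against 6.09, 4.71, 5.81 and 5.16 on the control arrays (-0.85 ± 0.42, adjusted p = 0.403, and -0.73 ± 0.22, adjusted p = 0.133, without number 1). Mutant array 1 exceeded control array 2, so these groups overlapped. Proximal maxilla arrays of the mutant read 4.82, 4.65, 4.58 and 4.85, against 7.04, 5.06, 5.06 and 5.27 on the control arrays (-0.88 ± 0.42, adjusted p = 0.999). Here the groups were again separate and control array 1 again stood out, and without number 1 the difference was -0.44 ± 0.22 (adjusted p = 0.790). On the mean of the 4 regions, 4 values against 4, the difference was -1.33 ± 0.30 (adjusted p = 0.0839), with values that did not overlap (7.14% of all genes were separate and lower on this mean). Without number 1 it was -0.96 ± 0.07 (adjusted p = 0.00173). With number 1 as a batch term it was -1.33 ± 0.23 (adjusted p = 0.0186). Dropping 4 maxilla arrays (both from control 2 and both from mutant 4) and averaging the region-centred values that remained gave -1.49 ± 0.28 (adjusted p = 0.0370). Mutant arrays lay below all control arrays in 3 of 4 regions, as they did for 8.02%, 5.50% and 1.08% of all genes tested in those regions (the mandible ends, then the proximal maxilla).

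**Figure D1:**
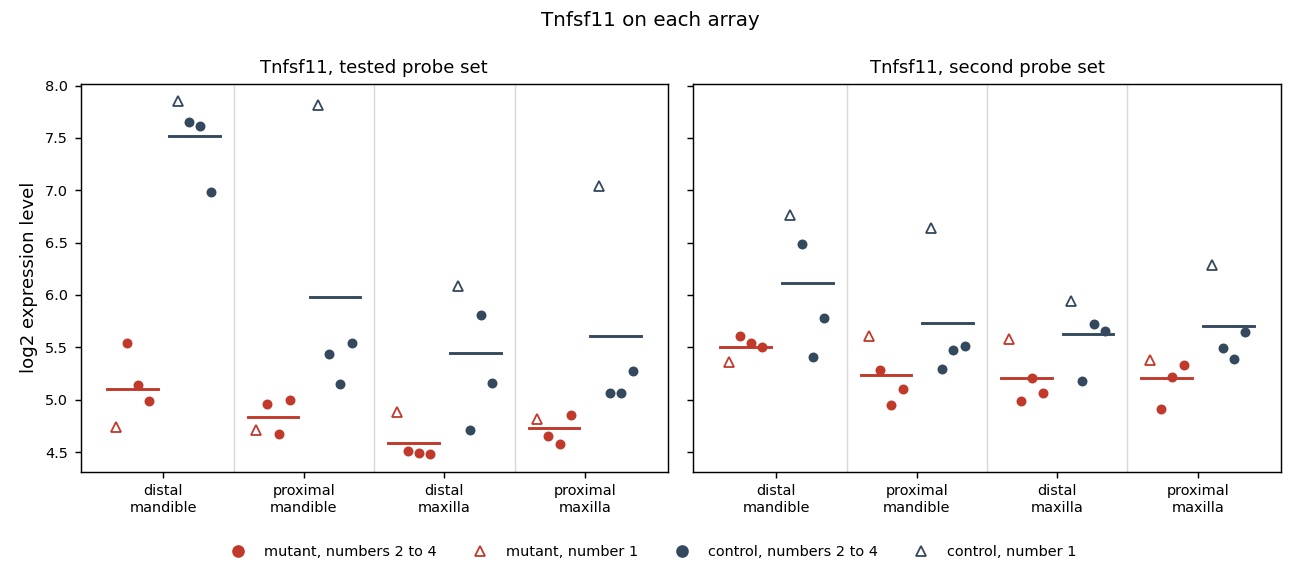
Log2 level of Tnfsf11 on each array for the tested probe set (left) and the second probe set (right), by region, with mutants in red left of controls in dark grey. Triangles are arrays of number 1 and bars are group means; on the tested probe set the mutant distal mandible reads 4.74 to 5.54, against 6.98 to 7.85 in the control distal mandible.

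A second probe set of Tnfsf11, above the filter level on 1 array only, moved the same way by less. In the distal mandible it read 5.36, 5.61, 5.54 and 5.50 on mutant arrays, against 6.76, 6.49, 5.41 and 5.78 on control arrays. The groups overlapped at control array 3, the array with the unusual Gapdh reading. With every probe set tested on its own, its differences were -0.61 ± 0.27 in the distal mandible (adjusted p = 0.393), -0.50 in the proximal mandible, -0.42 in the distal maxilla and -0.49 in the proximal maxilla. None of these 4 passed the adjusted test, while the first probe set again did in the distal mandible (adjusted p = 0.00411).

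Control tissue alone gave the regional pattern of Tnfsf11. The control distal mandible (7.52 ± 0.38) stood above the control distal maxilla (5.44 ± 0.62, SD, n = 4 each) by 2.08 ± 0.42 (adjusted p = 0.00638), with no overlap between arrays (1.72% of all genes were separate and higher there). All 4 arrays of the control distal maxilla lay under the filter level, so the ratio of 4.24 is approximate as well. The control distal mandible held 4 of the 6 arrays above that level, and the filter asked for 4. The gene was thus tested because this group read high, so the regional calls describe a gene selected through it. The control distal mandible also exceeded the control proximal mandible (5.98 ± 1.23) by 1.54 ± 0.42 (adjusted p = 0.0318). That call was lost when any 1 of 6 of the 8 arrays was left out (adjusted p up to 0.149), and the groups overlapped through proximal array 1. Without number 1 the difference between the ends was 2.04 ± 0.22 (adjusted p = 4.06e-05), with the proximal arrays at 5.15 to 5.54 and the distal ones at 6.98 to 7.65. On the dim second probe set the control distal mandible averaged 6.11 ± 0.62. There the control distal maxilla averaged 5.63 ± 0.32 and the control proximal mandible 5.73 ± 0.62 (SD, n = 4 each). Neither regional difference was called when that probe set stood for the gene. The order of the 8 group means ran from the control distal mandible down through the control proximal mandible, the control proximal and distal maxilla, the mutant distal and proximal mandible, and the mutant proximal and distal maxilla (4.59 ± 0.20). Only the step below the control distal mandible exceeded the pooled spread of its neighbours. Whether the genotype difference itself was larger in the distal mandible than elsewhere did not pass the adjusted test. It differed from that in the distal maxilla by -1.57 ± 0.60 (adjusted p = 0.556) and from that in the proximal mandible by -1.28 ± 0.60 (adjusted p = 0.999). Without number 1 these were -1.46 ± 0.31 (adjusted p = 0.0704) and -1.70 ± 0.31 (adjusted p = 0.0587).

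Csf1, the growth factor of osteoclast precursors and macrophages, was well above the filter level on all 32 arrays and was not called in any comparison. Distal mandible arrays of the mutant read 8.52, 8.51, 8.35 and 8.58, against 9.16, 8.62, 8.82 and 8.46 on the control arrays. The groups overlapped, and control array 1 was the highest of its group there as in all 4 control groups. The differences were -0.27 ± 0.13 in the distal mandible (adjusted p = 0.319), -0.31 ± 0.13 in the proximal mandible (adjusted p = 0.336), -0.22 ± 0.13 in the distal maxilla and -0.01 ± 0.13 in the proximal maxilla. Without number 1 they were -0.15, -0.22, -0.08 and 0.10 in the same order, each ± 0.11. Its 3 other probe sets differed by -0.08 to -0.04 in the distal mandible.

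Tnfrsf11a, which encodes the receptor RANK, lay close to the filter level and showed no shift. It passed the filter on exactly 4 arrays, 3 mutant and 1 control, with a lowest level of 6.17 and a highest of 7.05. The genotype differences were -0.03, -0.03, 0.04 and -0.05 in the distal mandible, proximal mandible, distal maxilla and proximal maxilla, each ± 0.14, and -0.10, 0.05, -0.14 and 0.04 without number 1, each ± 0.11.

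Tnfrsf11b, the decoy receptor gene, was called neither between genotypes nor between the jaws of controls in the main fit. In the distal mandible the mutant arrays read 4.83, 5.47, 5.20 and 5.07, against 6.96, 5.37, 6.29 and 6.11 on the control arrays. Control array 2 lay within the mutant range and the other 3 above it (difference -1.04 ± 0.36, adjusted p = 0.142). The differences were -0.51 ± 0.36 in the proximal mandible, 0.08 ± 0.36 in the distal maxilla and 0.13 ± 0.36 in the proximal maxilla. Without number 1 they were -0.68 and -0.38 in the distal and proximal mandible and 0.50 and 0.32 in the distal and proximal maxilla, each ± 0.38. The gene was above the filter level on 0 mutant and 1 control mandible arrays, so its mandible values are dim. In control tissue the proximal mandible read 6.36, 5.80, 5.44 and 5.59, against 7.15, 6.53, 6.95 and 6.79 in the proximal maxilla. No mandible array reached a maxilla array (5.14% of all genes were separate and lower there), yet the difference of -1.06 ± 0.36 did not pass (adjusted p = 0.0990), and it did when only those groups were fitted (adjusted p = 0.0403). Of the 11 arrays above the filter level all but 1 were maxilla arrays. The gene was thus tested because the maxilla read high, so the jaw differences describe a gene selected through it. At the distal end of controls the mandible differed from the maxilla by -0.74 ± 0.36 (adjusted p = 0.498), with overlapping groups. A second probe set of Tnfrsf11b, under the filter level on all arrays, gave differences between genotypes of -0.09 to 0.15. Its control means were 5.37 and 5.42 in the distal and proximal mandible, against 5.67 and 5.63 in the distal and proximal maxilla.

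Ctsk, the protease gene that defines resorbing osteoclasts and that fibroblasts also express, was lower in the mutant proximal mandible. The mutant arrays read 9.99, 9.78, 9.70 and 9.68, against 10.69, 10.38, 10.61 and 10.68 on the control arrays. The groups were separate by a clear gap. The difference was -0.81 ± 0.16 (adjusted p = 0.00935), with means of 9.79 ± 0.14 in mutants and 10.59 ± 0.15 in controls (SD, n = 4 each), a level 1.75-fold lower in the mutant. The call held when any 1 of the 8 arrays was left out (adjusted p = 0.0122 to 0.0467) and without number 1 (-0.84 ± 0.13, adjusted p = 0.00251). In the other regions the groups overlapped and the differences were smaller, at -0.11 ± 0.16 in the distal mandible, -0.13 ± 0.16 in the distal maxilla and -0.28 ± 0.16 in the proximal maxilla. Without number 1 these were 0.15, -0.07 and -0.09, each ± 0.13. The mutant proximal mandible, at 9.79, thus stood near the level of the other 6 groups (9.54 to 9.94), and the control proximal mandible alone stood above its neighbour in the order by more than the pooled spread. Against the control proximal maxilla, the control proximal mandible was higher by 0.66 ± 0.16 (adjusted p = 0.0144), a call lost without maxilla array 2 (adjusted p = 0.0593) or array 3 (adjusted p = 0.0581). In the control mandible the distal end was lower than the proximal end by 0.95 ± 0.16 on the log2 scale (difference -0.95, adjusted p = 0.00098). The genotype difference was not shown to depend on the end of the mandible (0.70 ± 0.23, adjusted p = 0.739).

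Acp5, the tartrate-resistant acid phosphatase gene used to stain osteoclasts, was lower on average in the mutant mandible without passing the test. Distal mandible arrays read 6.47, 5.97, 6.82 and 6.90 in mutants, against 8.10, 6.58, 7.39 and 7.37 in controls. The difference was -0.82 ± 0.32 (adjusted p = 0.186), and in the proximal mandible it was -0.69 ± 0.32 (adjusted p = 0.389). Arrays of number 2 were the lowest of their group in all 8 groups, 1 of them tied. With the number as a block the spread fell and the distal mandible passed (adjusted p = 0.0163), though equal numbers were not shown to pair the arrays there. Without number 1 the difference was -0.55 ± 0.39 (adjusted p = 0.445). In the maxilla it was -0.21 ± 0.32 at the distal end and -0.09 ± 0.32 at the proximal end. Without number 1 the other differences were -0.46 in the proximal mandible, -0.29 in the distal maxilla and -0.03 in the proximal maxilla, each ± 0.39. The gene lay above the filter level on 8 mutant and 11 control arrays.

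Mmp9, a protease gene of osteoclasts, neutrophils and remodelling tissue, varied more between arrays than any other member. In the control distal mandible array 1 read 11.72 and the other 3 read 8.07 to 8.26, and in the mutant distal mandible the arrays read 10.25, 7.26, 8.85 and 9.09. The proximal mandible read 8.45, 8.04, 7.37 and 6.83 in mutants, against 10.38, 7.73, 8.47 and 8.57 in controls. Array 1 was the highest of all 4 control groups and of 3 of the 4 mutant groups. The differences were -0.20 ± 0.69, -1.12 ± 0.69, -0.72 ± 0.69 and -0.55 ± 0.69 in the distal mandible, proximal mandible, distal maxilla and proximal maxilla, none called. Without number 1 they were 0.23, -0.85, -0.31 and -0.17, each ± 0.36, so the sign in the distal mandible rested on number 1.

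Of the fusion genes, Dcstamp was not called in any comparison and Ocstamp was not tested. Dcstamp lay above the filter level (6.66 to 6.86) on all 32 arrays, but only just, at 6.73 to 7.51. It failed the stricter filter at percentile 50. Its genotype differences were between -0.14 and 0.09, each ± 0.12, and between -0.02 and 0.05 without number 1. At this dim level such small differences do not show that the gene was unchanged. Ocstamp lay above the filter level on 0 of 32 arrays, at 4.75 to 5.97.

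**Figure D2:**
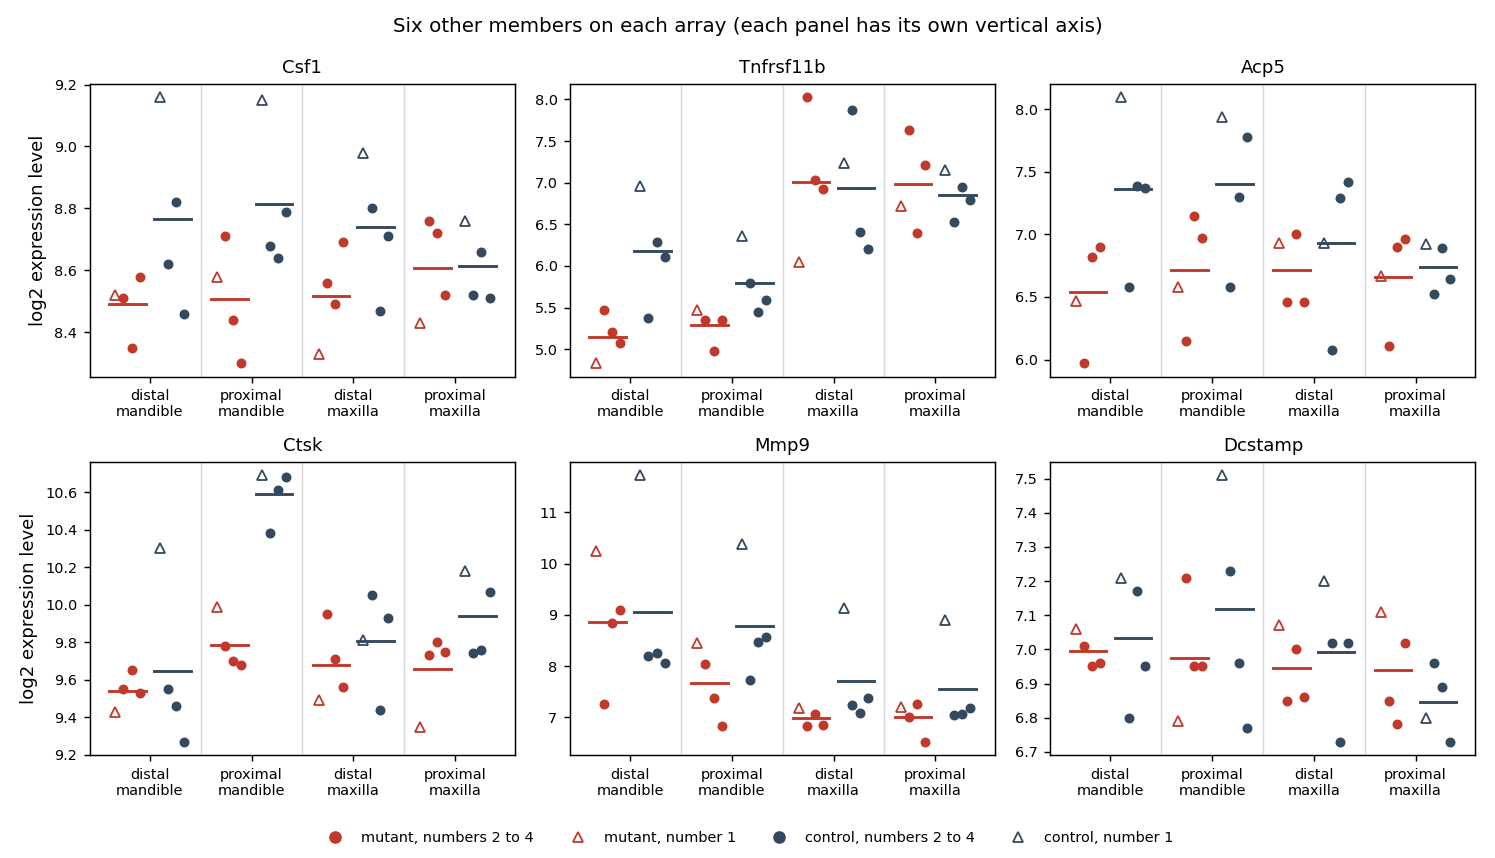
Log2 level of 6 members on each array, by region, with mutants in red left of controls in dark grey; triangles are arrays of number 1 and bars are group means. Each panel has its own axis; the control proximal mandible stands alone in Ctsk (10.38 to 10.69) and control array 1 stands above its group in Mmp9 (11.72 in the distal mandible).

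Counted together, 8 of the 9 members were tested, Tnfsf11 and Tnfrsf11a having passed the filter narrowly. In the distal mandible 1 was lower (Tnfsf11) and 0 higher, where 1.43% of all genes tested were lower. In the proximal mandible 1 was lower (Ctsk) and 0 higher, where 0.664% of all genes were lower. In the distal maxilla, where 0.788% of genes were called, and in the proximal maxilla, where 0.0657% were, limma called 0 members, with 0 and 1 at an unadjusted p under 0.05. On the mean of the regions it called 0, with 2 at an unadjusted p under 0.05. There 1.37% of all genes were called (388 genes with the number as a block, against 188 without). In the distal and proximal mandible 3 and 4 members had an unadjusted p under 0.05. Every share of all genes given here is at the adjusted threshold. The share at an unadjusted p under 0.05 is not given, so the unadjusted counts cannot be set against these shares. The median difference of the 8 was -0.24 in the distal mandible and -0.60 in the proximal mandible, against -0.03 and 0.01 over all genes tested, and -0.17 and -0.07 in the distal and proximal maxilla, against -0.03 and 0.02. Since Tnfsf11 passed the filter only through controls, these medians are a description of the members tested. Of the 8, 5 had a lower mean in mutants in each of the 4 regions (Tnfsf11, Csf1, Acp5, Ctsk and Mmp9), as did 17.0% of all genes. Without number 1 this held for 2 of the 8 (Tnfsf11 and Acp5) and for 14% of all genes, and the median difference of the members was -0.12, -0.42, -0.11 and 0 in the distal mandible, proximal mandible, distal maxilla and proximal maxilla.

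**Figure D3:**
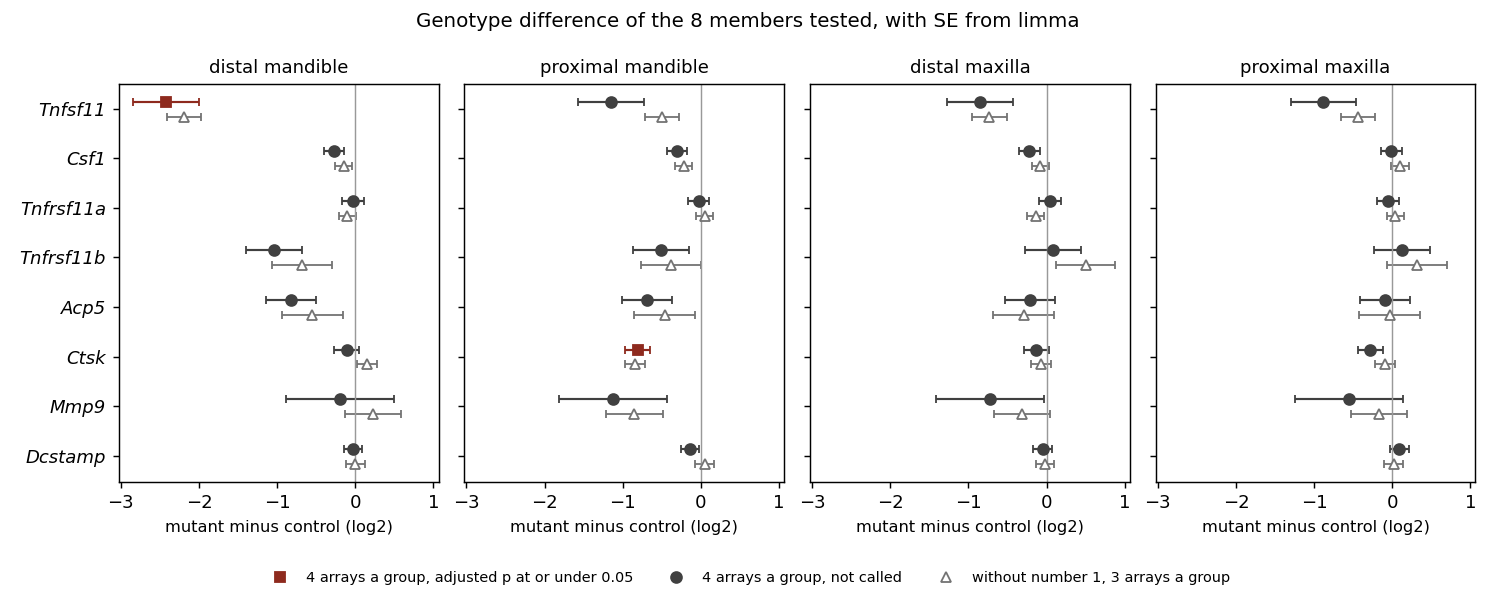
Mutant minus control difference (log2, with SE from limma) of the 8 members tested in each region. Filled symbols use 4 arrays a group, with squares for an adjusted p at or under 0.05, and open triangles leave out number 1; Tnfsf11 in the distal mandible (-2.42, and -2.19 without number 1) and Ctsk in the proximal mandible (-0.81, and -0.84) are the squares.

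Between regions of control tissue, different members stood out. Mandible against maxilla at the distal end, 1 member was called, higher (Tnfsf11), where 0.394% of genes were higher. At the proximal end 1 was called, higher (Ctsk), where 2.33% of genes were. Between the ends of the mandible 2 were called, Tnfsf11 higher and Ctsk lower at the distal end, where 2.29% of genes were higher and 2.55% lower. Between the ends of the maxilla limma called 0 members and 0 genes (0%), and 0 members had an unadjusted p under 0.05. Over the alternatives 0 to 184 genes were called there. The mean of 10 oral epithelium markers read 9.67 in the distal and 10.98 in the proximal maxilla of control number 2. For mutant number 4 it read 10.34 and 11.20. In every other number of both genotypes it was higher at the distal end. These 4 arrays were dropped in 1 alternative, and why they read so was not tested. In the 4 tests of whether the genotype difference varied with jaw or end, limma called 0 members, where 0.102%, 0.00730%, 0.0219% and 0.0584% of genes were called. At an unadjusted p under 0.05 there were 2, 1, 2 and 0 members, and the share of all genes at that cut is not given. The regional comparisons share their control arrays with the genotype comparisons, and Tnfsf11 was tested because the control distal mandible read high.

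Downstream of RANK, Nfatc1 was lower in the mutant mandible. This gene belonged to a list of 41 signalling genes, of which 34 were tested, 2 lay under the filter and 5 were not analysed here. In the distal mandible the mutant arrays read 9.08, 9.42, 9.44 and 9.44, against 9.80, 10.19, 9.91 and 9.97 on the control arrays. The difference was -0.62 ± 0.15 (adjusted p = 0.0244), a call lost without any 1 of 5 of the 8 arrays (adjusted p up to 0.0895). In the proximal mandible the mutant arrays read 9.79, 10.02, 10.26 and 10.08, against 11, 10.99, 10.78 and 10.69 on the control arrays (-0.82 ± 0.15, adjusted p = 0.00295). In the maxilla the differences were -0.40 ± 0.15 at the distal end and -0.48 ± 0.15 at the proximal end, not called. All mutant arrays of Nfatc1 lay below all control arrays in each of the 4 regions, by as little as 9.44 against 9.45 in the proximal maxilla. This held for 0.0949% of all genes tested. Nfatc1 was named because it was called in these same comparisons, so that share does not measure how rare its separation is. On the mean of the regions the difference was -0.58 ± 0.11 (adjusted p = 0.0497, and adjusted p = 0.0685 with the number as a block), a call lost without any 1 of 7 of the 8 averaged values. Nfatc1 had 4 other probe sets, all dimmer, which differed by -0.29 to 0.05 in the distal mandible and by -0.34 to -0.06 in the proximal mandible. With the probe sets past the filter averaged, the differences were -0.28 (adjusted p = 0.292) and -0.49 (adjusted p = 0.0646), so both calls rested on the brightest probe set. In control tissue the proximal mandible was higher than the proximal maxilla in Nfatc1 (1.10 ± 0.15, adjusted p = 2.74e-05) and in the AP-1 gene Jun (0.57 ± 0.15, adjusted p = 0.0161), and the distal end of the mandible was lower than the proximal end in both (-0.90 ± 0.15, adjusted p = 0.000628, and -1.16 ± 0.15, adjusted p = 3.16e-05). Nfatc1 and Jun are also expressed outside osteoclasts, for instance in endothelial cells and mesenchyme.

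Trem2 and Irf8, of the same list, were higher in mutants where they were called. Trem2, a receptor of macrophages and osteoclast precursors, was higher in the mutant proximal mandible, at 7.90, 7.91, 7.97 and 7.65, against 7.25, 6.84, 6.90 and 7.08 on control arrays (0.84 ± 0.12, adjusted p = 0.000192). Separate groups with the mutant higher held for 6.33% of all genes in that region. It was also higher in the distal maxilla (0.48 ± 0.12, adjusted p = 0.0478) and the proximal maxilla (0.64 ± 0.12, adjusted p = 0.0286), both calls lost without most single arrays. In the distal mandible it differed by 0.28 ± 0.12 (adjusted p = 0.224). Irf8, a transcription factor of macrophages that restrains osteoclast formation, was higher on the mean of the regions (0.39 ± 0.06, adjusted p = 0.0265), a call lost without any 1 of 5 of the 8 averaged values. It was called in no single region, and in the distal mandible it differed by -0.03 ± 0.15. Csf1r, the receptor of M-CSF and named after its values were seen, read 10.98, 11.07, 11.14 and 10.88 in the mutant proximal mandible, against 10.45, 9.86, 10.02 and 10.29 in the control. These groups did not overlap, and the difference of 0.86 ± 0.32 did not pass the test (adjusted p = 0.220). Csf1r differed by -0.24 in the distal mandible, 0.92 in the distal maxilla and 1.06 in the proximal maxilla, each ± 0.32 and not called. The signalling list as a whole had 1 gene lower and 0 higher in the distal mandible, and 1 lower and 1 higher in the proximal mandible. It had 1 higher in each maxilla region. Over all genes, 1.43% were lower in the distal mandible and 0.664% in the proximal mandible. The shares higher were 0.591%, 0.358% and 0.0584% in the proximal mandible, distal maxilla and proximal maxilla. The list's median difference was -0.22, -0.02, 0.01 and 0.10 in the distal mandible, proximal mandible, distal maxilla and proximal maxilla, against -0.03, 0.01, -0.03 and 0.02 over all genes.

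Of 18 genes of attachment, acid secretion and ion transport in resorption, 17 were tested. Itgb3, the integrin beta 3 subunit of the osteoclast's attachment ring, was lower in the mutant distal mandible, at 7.55, 7.59, 7.87 and 7.73, against 8.73, 8.24, 8.81 and 8.02 on control arrays (-0.77 ± 0.16, adjusted p = 0.00692). The call was lost when only these groups were fitted (adjusted p = 0.0684). It was the 1 gene of the list called there, and limma called 0 in the other 3 regions, where 1.43% of all genes were lower in the distal mandible and 0.664% in the proximal mandible. Without number 1 the counts were 2 lower in the distal mandible and 0 elsewhere. The shares above are from the fit with number 1 and do not apply to these counts. In the proximal mandible Itgb3 differed by 0.09 ± 0.16, with overlapping groups. In the distal maxilla the mutant arrays read 7.97, 7.74, 7.89 and 7.97, against 8.81, 8.24, 8.33 and 8.09 on control arrays. These groups did not overlap, and the difference of -0.47 ± 0.16 did not pass the test (adjusted p = 0.156). In the proximal maxilla Itgb3 differed by 0.11 ± 0.16. Its dimmer second probe set differed by 0.01 ± 0.17 in the distal mandible. Between the ends of the control mandible, Itgav, the partner subunit of Itgb3, was higher at the distal end by 0.31 ± 0.09 (adjusted p = 0.0347), a call lost without most single arrays.

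**Figure D4:**
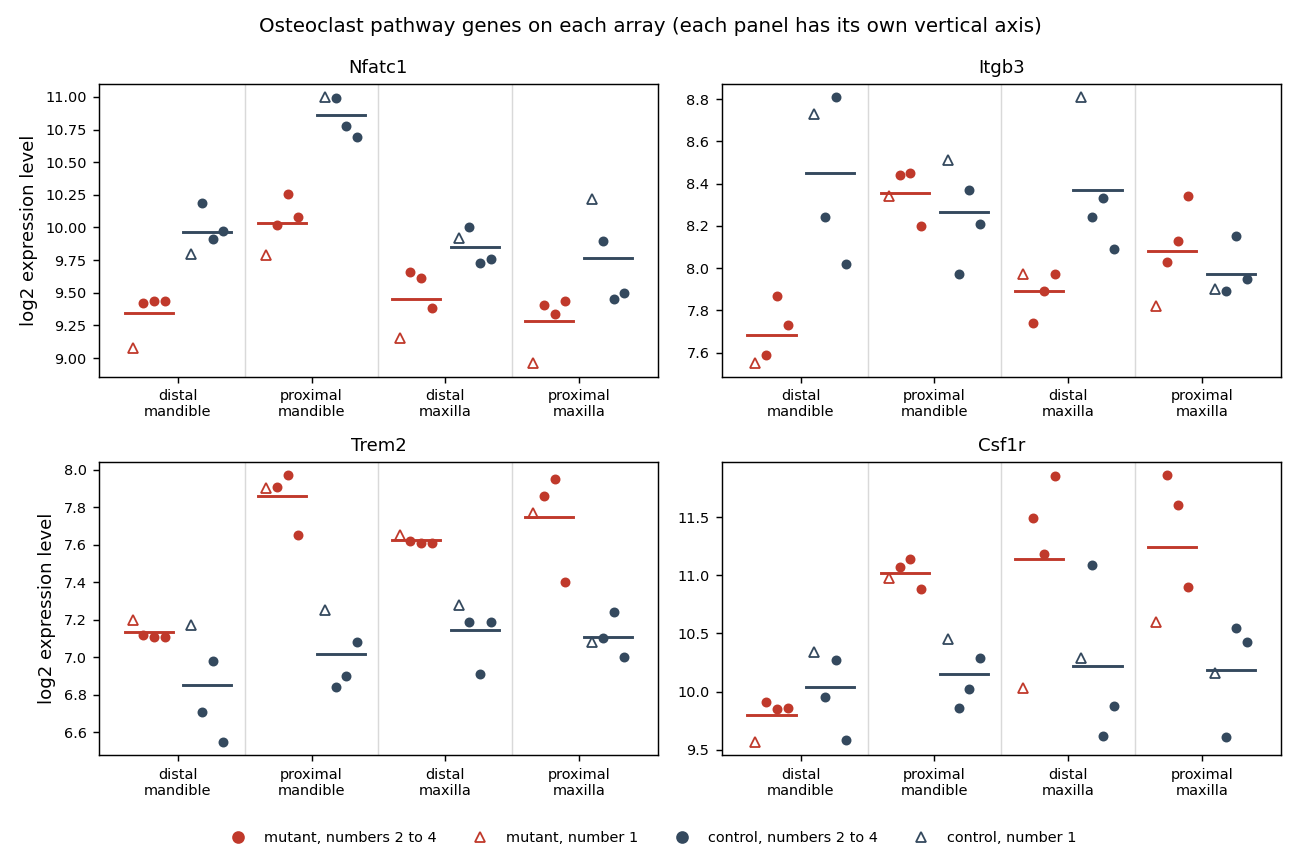
Log2 level of 4 genes around the axis on each array, by region, with mutants in red left of controls in dark grey; triangles are arrays of number 1 and bars are group means. Nfatc1 arrays do not overlap between genotypes in any region (9.79 to 10.26 in the mutant proximal mandible, against 10.69 to 11 in the control), while Trem2 reads 7.65 to 7.97 in the mutant proximal mandible, against 6.84 to 7.25 in the control.

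Marker lists of the cells that make and answer RANKL were read beside these results, and their part in them was not tested. Of 18 macrophage and monocyte markers, all tested, 2 were lower in the mutant distal mandible (Pf4 and Ptprc) and 6, 4 and 3 were higher in the proximal mandible, distal maxilla and proximal maxilla. Over all genes 1.43% were lower in the distal mandible, and 0.591%, 0.358% and 0.0584% were higher in the other regions. On the mean of the regions 8 macrophage markers were higher and 0 lower, where 1.37% of all genes were called in either direction. Without number 1 the macrophage counts were 2 lower, then 7, 11 and 3 higher. The list's mean level was 8.72 to 9 in the mutant proximal mandible, against 7.98 to 8.34 in the control, and 7.61 to 7.80 in the mutant distal mandible, against 7.72 to 8.34 in the control. The list's median difference was -0.13, 0.80, 0.74 and 0.83 in the distal mandible, proximal mandible, distal maxilla and proximal maxilla. Without number 1 it was 0.03, 0.80, 1.02 and 0.96. Of these regions, Ctsk was called lower in the proximal mandible alone. Tnfsf11 was called lower in the distal mandible alone, though its mean was lower in mutants in all 4. Of 16 osteoblast markers 9 were tested and limma called 0 in any of the 4 regions or on their mean. Without number 1 it called 1 lower in each region except the proximal maxilla (0). In that fit 4 were lower on the mean of the regions, where Tnfsf11 was called lower too. The share of all genes in that fit is not given. Ibsp, Dmp1 and Mepe lay under the filter, and the remaining genes of the list were not analysed here. The osteoblast list's mean was 9.96 to 10.37 in the mutant distal mandible, against 9.96 to 11 in the control, and 9.75 to 10.09 in the mutant proximal mandible, against 10.16 to 11.93 in the control. Its median difference was -0.30, -0.80, -0.67 and -0.33 in the distal mandible, proximal mandible, distal maxilla and proximal maxilla, and -0.18, -0.59, -0.33 and -0.10 without number 1. Control array 1 held the highest osteoblast value of its group in each region (11 against 9.96 to 10.30 in the distal mandible, and 11.93 against 10.16 to 10.30 in the proximal mandible), the same array that was highest for Tnfsf11, Csf1 and Mmp9. Of 14 cartilage markers tested limma called 0 between genotypes, with medians of -0.31, -0.61, -0.51 and -0.53 in the same order of regions. Without number 1 these were -0.13, -0.25, -0.28 and -0.18. Control array 1 held the highest cartilage value of its group in each region too (10.71 against 9.24 to 9.49 in the proximal mandible). Neutrophil markers, a second source of Mmp9, had 1 call between genotypes, higher in the mutant distal maxilla (6 of 12 tested). Epithelial, muscle and erythroid markers had 0 calls between genotypes, of 10, 11 and 5 tested, although the muscle list had a median difference of 1.34 in the distal mandible.

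**Figure D5:**
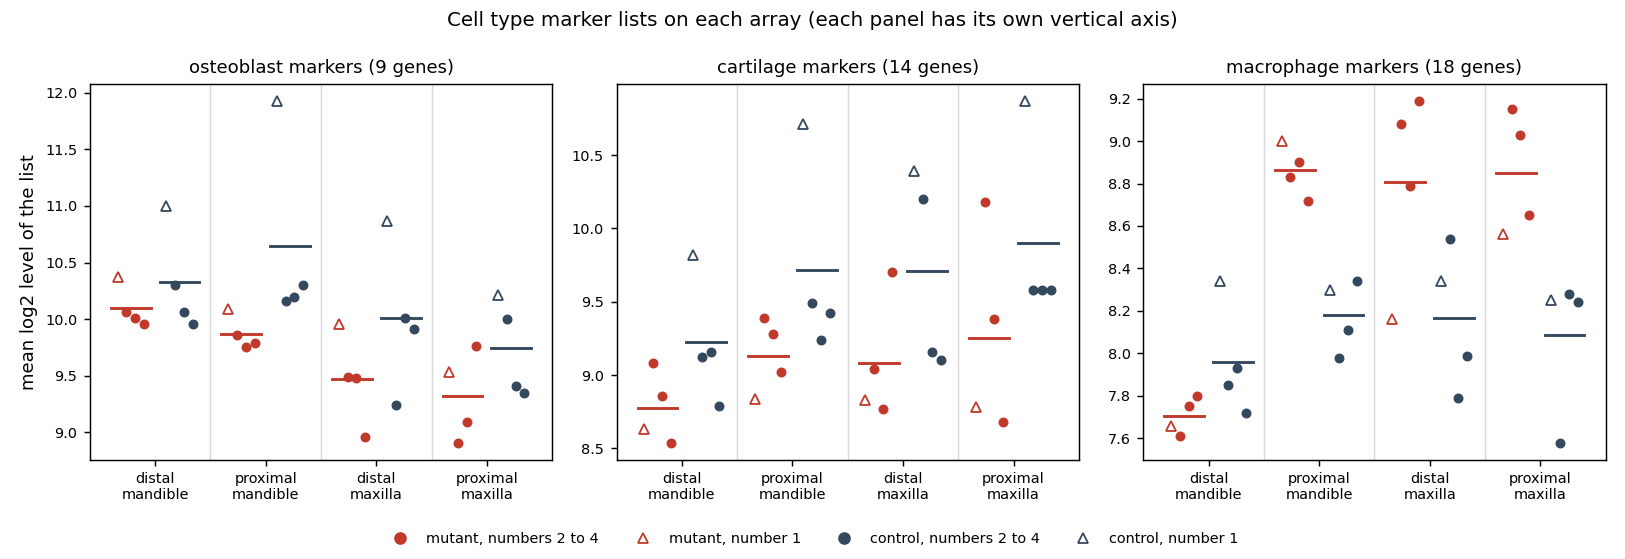
Mean log2 level of the osteoblast, cartilage and macrophage marker genes on each array, by region, with mutants in red left of controls in dark grey; triangles are arrays of number 1 and bars are group means. The macrophage mean is higher in the mutant proximal mandible (8.72 to 9, against 7.98 to 8.34 in the control), and control array 1 stands high in the osteoblast panel.

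Across the 32 arrays, which share regions, genotypes and numbers, the genes most like each member were taken as the 4 with the highest Pearson correlation among the genes tested. For Tnfsf11 they were Tmem255a (0.878), the bone morphogenetic protein gene Bmp6 (0.863), Bend5 (0.841) and the protocadherin gene Pcdhb16 (0.831). Bmp6 averaged 8.59 ± 0.11 in the mutant distal mandible and 9.80 ± 0.60 in the control, and 7.91 ± 0.13 in the mutant proximal mandible and 9.11 ± 0.72 in the control (SD, n = 4 each). For Tnfrsf11b they were Cldn11 (0.847), Bcl6 (0.826), Myo6 (0.825) and Ank (0.825), and for Ctsk Adamts9 (0.799), Appl1 (0.789), Galnt4 (0.788) and Prokr1 (0.779). Cldn11, chosen by this likeness, averaged 7.28 ± 0.67 in the control proximal mandible and 9.41 ± 0.88 in the control proximal maxilla (SD, n = 4 each). For Mmp9 they were Ramp1, Derl2, Igfbp3 and Tpst1 (0.815 to 0.827), and for Csf1 Ikbip, Arsb, Klf2 and Ckap4 (0.872 to 0.889). The closest genes to Acp5, Tnfrsf11a and Dcstamp were Gmppb (0.776), Dus2 (0.855) and Prss29 (0.754). These correlations describe 32 arrays that are not independent, and no p is given.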

How the data were processed

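Total RNA of dissected jaw tissue was labelled and hybridised to 1-colour arrays. The authors deposited RMA output on a log2 scale, 1 value per probe set and array, per the submitters' processing notes. The RMA version is not given in the sources used here. RMA draws the arrays to a common distribution. Of 45101 probe sets, 34945 had 1 symbol in the platform annotation, 932 several and 9160 none, and only the first were named. A probe set was kept where 4 or more arrays read above their own percentile 40, and the one of highest mean among those kept stood for its gene (13705 genes). For Tnfsf11 the probe set of highest mean overall failed the filter, so the other was tested and both are reported.

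Fits used limma 3.58.1 in R 4.3.3 with 8 group means (24 residual degrees of freedom). The average effect compared the regional means of each number, 4 against 4 (6 residual degrees of freedom). P-values were adjusted by Benjamini-Hochberg over all genes tested, threshold 0.05, and every adjusted p in the text is from limma. The script was tested on simulated data. The number of arrays limits the precision. The members and lists were chosen with earlier results of these data known. Named besides the members were Tgfbr1, called genes of the 2 pathway lists (at most 6 a comparison) and the 4 genes most correlated with each member. Csf1r, the marker genes, Hand2 and Xist were named outside this rule, after their values were seen. Equal numbers deviated together for the average effect alone (correlations 0.439, 0.201, 0.395 and 0.230), a hint from the data that no label gives. Alternatives covered the block, the samples fitted, normalization, filter, probe set choice, number 1, array quality, the intensity trend and single arrays. Sequences are from RefSeq.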

Additional observations from a re-analysis of the deposited data

Results flagged for a closer look

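Within each group of 4 arrays, the highest or lowest array was compared with the rest for each member by Dixon's test. Of 72 sets of 4 values (9 members in each of 8 groups), 7 had an array that stood apart, and all 7 were arrays of number 1. Chance gives about 1 in 20 for a single set. The members share the same arrays, so the 72 are not independent and their count was not tested against chance. Tnfsf11 read 7.81 on control proximal mandible array 1 (others 5.15 to 5.54), 4.88 on mutant distal maxilla array 1 (others 4.48 to 4.51) and 7.04 on control proximal maxilla array 1 (others 5.06 to 5.27). Ctsk read 9.35 on mutant proximal maxilla array 1, below the others (9.73 to 9.80). Mmp9 read 11.72 on control distal mandible array 1 (others 8.07 to 8.26), 9.13 on control distal maxilla array 1 (others 7.08 to 7.38) and 8.89 on control proximal maxilla array 1 (others 7.04 to 7.19). Number 1 also differed from the rest in its Cre spike-in reading, and control array 1 was highest in its group for Tnfsf11, Csf1 and Mmp9 in all 4 regions. Whether these readings come from the array step or the tissue was not tested.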

How the results depend on the processing

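The count of members called kept its value in the proximal mandible (1), the distal and proximal maxilla (0 each), for the end difference of the control maxilla (0) and in the 4 interactions (0 each) under every alternative run, single arrays left out included. In the distal mandible it was 2 with the number as a replicate block (Acp5 added) and 0 with no filter on low signal. With no filter the other probe set of Tnfsf11 stood for the gene (-0.61, adjusted p = 0.320), which also gave 0 for the jaw difference at the distal end of controls. On the mean of the regions the count was 1 without number 1, with number 1 as a covariate and with 4 maxilla arrays dropped (control 2 and mutant 4), and it was 0 with the replicate block. It was 0 to 1 when single averaged values were left out, with Tnfsf11 called without control 1. The jaw difference at the proximal end of controls gave 2 with the block, 2 with only those groups fitted, 0 with those maxilla arrays dropped and 0 to 1 without single arrays. The end difference in the control mandible gave 1 with only those groups fitted, 1 with no filter, 1 without control distal mandible array 3, 1 with every probe set tested (an alternative chosen after seeing the data) and 1 to 2 without single arrays; Tnfsf11 was the call lost. The block changed no other member count. The stricter filter removed Tnfrsf11a, Tnfrsf11b, Dcstamp and Irf8, which then had no value. Counts over all genes moved more, with 159 to 782 over the alternatives in the distal mandible (262 as reported), 155 to 486 in the proximal mandible (172), 2 to 336 in the distal maxilla (108) and 120 to 1182 on the mean of the regions (188). Where not stated, the cause was not tested. Dim signal limits Tnfrsf11a, Dcstamp, Ocstamp, Tnfrsf11b in the mandible, and Tnfsf11 in mutants and in controls outside the distal mandible.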
